A study of Mus musculus with 62 samples.

Results

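Genes of the interferon response and of antigen presentation were examined in the diaphragm of mice with and without melanoma xenografts. The set holds 36 genes, chosen by name from a table of 47643 genes. By role there are 5 transcription factors, 10 antiviral effectors and genes of the ISG15 system, 6 interferon-induced GTPases, 7 genes of MHC class I presentation, 3 immunoproteasome subunits and 5 genes of MHC class II presentation. All 36 genes reached 1 TPM in at least 5 mice and were tested among 13578 genes. TPM is a share of a library's transcripts corrected for gene length, with the same sum in every library, so that levels can be set side by side between genes.

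The RNA of the diaphragm was sequenced in 62 mice, all female and labelled as 2 months old, at 2, 4, 6 and 8 weeks post implantation. Cachectic mice carried the patient-derived melanoma xenograft MAST360B, non-cachectic mice carried the melanoma xenograft MAST552A, and control mice received a mock injection without tumor cells. Each condition had 5 mice, except cachectic mice at 8 weeks with 7. Each tumor arm rests on a single xenograft, so the wasting and the identity of the tumor cannot be told apart. The sample labels name the strain C57BL6/J, whereas the series description and the methods of the study name NCI Ath/nude mice, which lack a thymus. No genotype or drug treatment separates the groups.

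Interferons bind receptors that act through Jak kinases and Stat proteins, and complexes that hold Stat2 and Irf9 bind promoters of interferon-stimulated genes. The induced proteins block viruses at entry, translation and release, and they raise the display of peptides to T cells. Peptides cut by the immunoproteasome are pumped by the Tap transporter onto MHC class I on nearly all cells, while MHC class II is loaded in macrophages, dendritic cells and B cells. Resting muscle fibers show little of either class, and inflamed muscle is known to show more.

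The 10 skeletal muscle markers summed to between 38620.0 and 92320.0 TPM over the 62 mice. The 8 T cell markers summed to at most 5.40 TPM in any mouse and none of them passed the filter, so T cells were at or near the limit of detection. Libraries of 2 kinds stood apart. The 4 libraries that list the fewest genes, between 15069 and 16389 against 17909 or more in the others, were replicates 3 and 4 of cachectic mice at 2 weeks, replicate 3 of cachectic mice at 8 weeks and replicate 5 of non-cachectic mice at 2 weeks. The 4 mice with the highest levels of liver genes were replicates 2, 4 and 5 of control mice at 2 weeks and replicate 5 of cachectic mice at 6 weeks. The depth in reads is unknown, since the values are TPM. Fewer cells of a type and less RNA per cell cannot be told apart in whole muscle.

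In the 15 control mice at 4 to 8 weeks, the levels of the 36 genes spanned more than 2 orders of magnitude. B2m, the light chain of MHC class I, was the highest with a median of 357 TPM (223 to 451), followed by Ifitm3 with 144 TPM (133 to 183), Cd74 with 127 TPM (91.8 to 178) and H2-D1 with 111 TPM (35.1 to 172). The ranges of Ifitm3, Cd74 and H2-D1 overlap, so their order among themselves is within the spread of the mice. At the low end were Nlrc5 with a median of 1.13 TPM, Usp18 with 1.13 TPM and Ciita with 0.799 TPM, which are the class I transactivator, the ISG15 protease and the class II transactivator. The mice of one condition differed more in these genes than in most: the median standard deviation within conditions was 0.39 on the log2(TPM + 1) scale, against 0.33 over all genes tested, and 28 of the 36 genes lay above the latter. It ranged from 0.18 for Psmb10 to 1.07 for H2-Eb1.

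Differences between groups are given below as differences of mean log2(TPM + 1), tested with limma and adjusted by the Benjamini-Hochberg method over all genes tested, and a gene is called at an adjusted p under 0.05. In cachectic versus control mice at 6 weeks, 1 of the 36 genes was called, Ifitm3, which was higher; 6.79% of all genes tested were called and 5.62% were higher. At 8 weeks 2 genes were called, Ifitm3 higher and Gbp3 lower, and 14.8% of all genes were called, 6.65% higher and 8.12% lower. Both shares of the 36 genes are below those of all genes. At 4 weeks 0 genes were called, with 1 at an unadjusted p under 0.05, and 0.0221% of all genes were called, 0.0147% higher and 0.00736% lower. At an unadjusted p under 0.05, also given for role groups below, there were 4 of the 36 genes at 6 weeks and 7 at 8 weeks. Of all 13578 genes tested, 728, 2726 and 3666 had such a p at 4, 6 and 8 weeks. At 2 weeks 15 genes were called and all were lower, where 27.8% of all genes were lower and 29.3% were called in either direction. The calls at 2 weeks rest on a few libraries, as described further on.

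**Figure D1:**
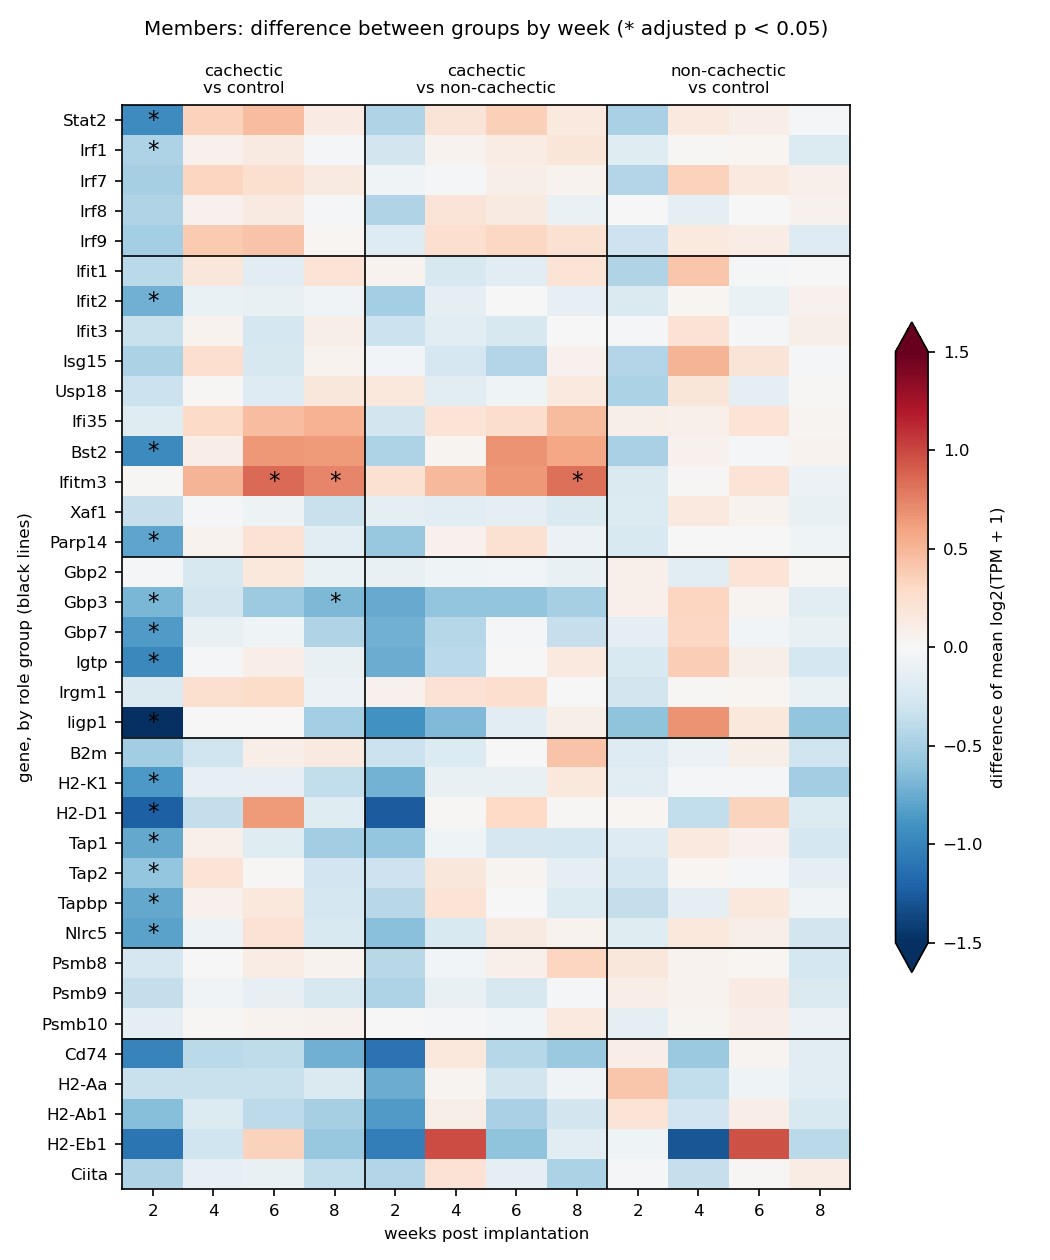
Difference of mean log2(TPM + 1) for the 36 genes (rows, by role) in each comparison and week (columns); red is higher and blue lower in the first-named group, and a star marks an adjusted p under 0.05. The stars fall on 15 blue cells of cachectic versus control mice at 2 weeks, on Ifitm3 at 6 and 8 weeks and Gbp3 at 8 weeks in the same comparison and on Ifitm3 at 8 weeks against non-cachectic mice; non-cachectic versus control mice have none.

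TPM values share a fixed sum, and the median difference over all genes tested was not 0: in cachectic versus control mice it was -0.42 at 2 weeks, 0.042 at 4 weeks, 0.17 at 6 weeks and -0.094 at 8 weeks. The medians of the 36 genes were -0.51, 0.012, 0.075 and -0.11 at the same weeks. Median-ratio scaling between libraries brought the medians of all genes to -0.058, -0.0042, 0.0096 and 0.013. Relative to the median of all genes, Ifitm3 was higher by 0.69 at 6 weeks and 0.83 at 8 weeks, and Gbp3 differed by -0.58 at 8 weeks.

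Ifitm3 was called in 3 comparisons, more than any other gene of the set. It encodes a membrane protein of endosomes that blocks the fusion of entering viruses. At 6 weeks its levels were 201, 267, 268, 274 and 334 TPM in cachectic mice and 139, 139, 142, 147 and 167 TPM in control mice. Non-cachectic mice had 129, 163, 165, 186 and 212 TPM. Every cachectic mouse lay above every control mouse, while the lowest cachectic mouse lay within the range of the non-cachectic ones. The difference from control mice was 0.85 (SE 0.21, 95% confidence interval 0.43 to 1.28, adjusted p = 0.00752), and that from non-cachectic mice was 0.65 (SE 0.21, 95% confidence interval 0.22 to 1.07, adjusted p = 0.0564).

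At 8 weeks Ifitm3 ranged from 178 to 420.2 TPM in the 7 cachectic mice, with a median of 277 TPM. Control mice had 133, 173, 174, 179.5 and 183 TPM and non-cachectic mice 135, 141, 149, 174 and 193 TPM. The lowest cachectic mouse, replicate 1, lay among the others, and the remaining 6 lay above all control and non-cachectic mice. Ifitm3 was higher than in control mice by 0.74 (SE 0.20, 95% confidence interval 0.34 to 1.13, adjusted p = 0.00612) and higher than in non-cachectic mice by 0.83 (SE 0.20, 95% confidence interval 0.44 to 1.22, adjusted p = 0.00216). Against non-cachectic mice at 8 weeks this was the only 1 of the 36 genes that was called, where 12.9% of all genes were called, 6.75% higher and 6.19% lower. At 4 weeks the cachectic mice, with 162, 179, 191, 245 and 249.8 TPM, did not overlap with the control mice, with 135, 140.5, 142, 144 and 152 TPM, but the difference of 0.51 was not called (adjusted p = 0.744). The share of all genes tested that separate in this way is not given, here or for genes below. A separation without a call is therefore a description only. The change of the difference between 4 and 8 weeks was 0.23 (SE 0.29, 95% confidence interval -0.35 to 0.81, adjusted p = 0.791). Dunn's test on ranks, the study's kind of test, did not call Ifitm3 after adjustment over all genes tested, with an adjusted p of 0.0687 at 6 weeks and 0.14 at 8 weeks against control mice. With that adjustment it called none of the genes tested at 6 weeks. The study's methods give cutoffs of p and fold change and name no adjustment, so these values do not show what its own cutoffs would call. Median-ratio scaling gave 0.66 (adjusted p = 0.129) at 6 weeks and 0.90 (adjusted p = 0.00581) at 8 weeks.

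**Figure D2:**
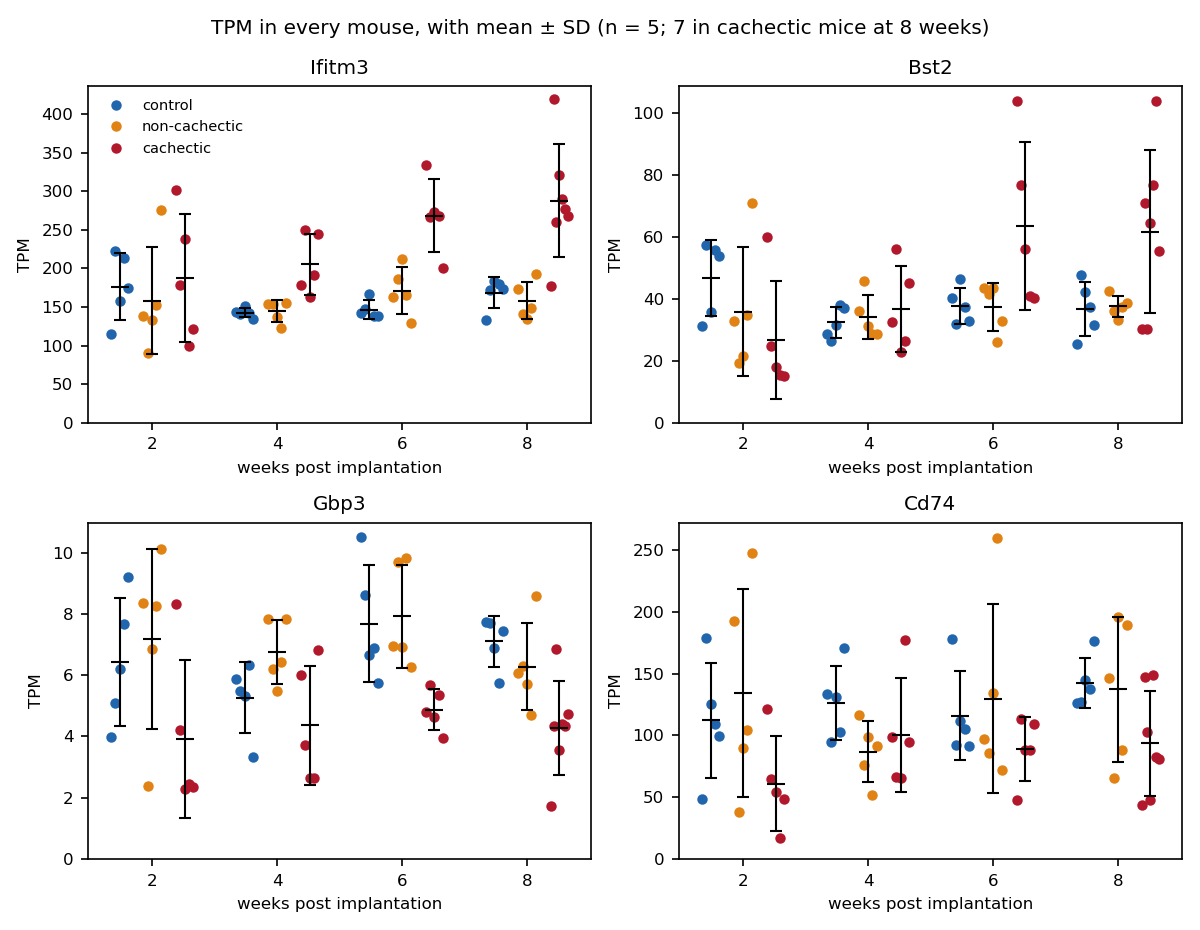
TPM of Ifitm3, Bst2, Gbp3 and Cd74 in every mouse (points) with the mean and SD (bars) by group and week, n = 5 per group and 7 in cachectic mice at 8 weeks. Ifitm3 in cachectic mice at 6 weeks lies at 201 TPM or more, above all control mice, and Gbp3 at 8 weeks reaches from 1.73 to 6.86 TPM in cachectic mice against 5.75 to 7.75 TPM in control mice.

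The promoters of Ifitm3 and Gbp3 are shown since these are the genes called after 2 weeks. Promoter windows from RefSeq (GRCm38.p6), 250 bases before to 50 after a start, were found for 28 of the 36 genes and searched on both strands for GAAA followed by any 2 bases and GAAA, the core of the interferon-stimulated response element. Ifitm3 lies at chr7:141009586-141010770 on the minus strand, and both of its matches are just past the start that RefSeq gives, position 141010744, at bases 3 and 20 counted from it. Gbp3 lies at chr3:142560026-142573209 on the plus strand, and its matches are on the opposite strand, 45 and 39 bases before the RefSeq start, position 142560044. The spans are those of the GENCODE annotation, whose starts differ from the RefSeq starts, and every distance to a start is counted from RefSeq's. Capitals mark the motif, each sequence is read on the strand of its gene, and the lines of a gene overlap each other; the windows are chr7:141010725-141010750, chr7:141010708-141010733, chr3:142559991-142560016 and chr3:142559997-142560022.
Ifitm3, first match: aaattcagGAAAAGGAAActtctgag
Ifitm3, second match: acttctgaGAAACCGAAActgccgca
Gbp3, first match: ggacacagTTTCAGTTTCtatttccc
Gbp3, second match: agtttcagTTTCTATTTCccagatcc

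Of the 28 genes with a promoter window, 12 (42.9%) held this motif, as did 3.69% of 10082 tested genes and 3.99% of 27025 genes with a window. The longer form that goes on with CT, each match of which also counts for the former, was found in 8 of the 28 (28.6%), against 0.417% of the tested genes. By role, 5 of 5 interferon-induced GTPases, 5 of 8 antiviral effectors, 1 of 5 transcription factors, 1 of 5 class I genes, 0 of 3 immunoproteasome subunits and 0 of 2 class II genes held the shorter form. TTCNNNGAA, the form bound by Stat dimers, was found in 9 of the 28 (32.1%) and in 8.45% of the tested genes. Further matches were read for genes that were chosen after their values were seen, because they stand at the extremes of the results below. Bst2 (chr8:71537585-71537610), Gbp7 (chr3:142530275-142530300), Stat2 (chr10:128270268-128270293) and B2m (chr2:122147540-122147565) have the following sequences.
Bst2, first match, 130 bases before the RefSeq start: cattccagGAAAATGAAActgaaagg
Gbp7, 53 bases before the RefSeq start: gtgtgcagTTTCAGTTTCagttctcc
Stat2, 222 bases before the RefSeq start: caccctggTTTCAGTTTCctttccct
B2m, 139 bases before the RefSeq start: aagaacatGAAACTGAAAatgggaaa

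A match was thus held by genes that were higher, lower and not called, and is a description of the letters in the window only. Ifitm1 and Ifitm2 are relatives of Ifitm3 that lie close to it on chromosome 7, and Ifitm2 was chosen after its values were seen. Ifitm1 reached 10.1, 10.9, 12.5, 16.6 and 28.2 TPM in cachectic mice at 6 weeks and 2.11, 2.22, 2.43, 3.57 and 4.00 TPM in control mice. It was higher by 2.04 (adjusted p = 5.33e-06) at 6 weeks and 2.49 (adjusted p = 6.46e-09) at 8 weeks, and Ifitm2 by 1.18 (adjusted p = 0.00187) and 0.92 (adjusted p = 0.00431). All 3 Ifitm genes were therefore higher in cachectic than in control mice at both weeks. Their sequences are alike, and reads shared between them were assigned in a way not given in the sources used here.

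In the reported fit, none of the other 9 antiviral effectors was called at 6 or 8 weeks. Bst2, or tetherin, holds budding viruses at the cell surface and had the next larger estimates. At 6 weeks it was at 40.1, 40.9, 56.0, 76.7 and 104 TPM in cachectic mice and 31.9, 32.7, 37.5, 40.1 and 46.3 TPM in control mice. At 8 weeks it ranged from 30.1 to 104 TPM, with a median of 64.5 TPM, in cachectic mice and had 25.4, 31.6, 37.3, 42.1 and 47.5 TPM in control mice. The groups overlapped at both weeks, as 3 of the 5 cachectic mice at 6 weeks and 5 of the 7 at 8 weeks exceeded all controls. The differences were 0.65 (SE 0.30, 95% confidence interval 0.043 to 1.26, adjusted p = 0.209) and 0.64 (SE 0.28, 95% confidence interval 0.075 to 1.20, adjusted p = 0.124). Without the 4 libraries that list the fewest genes, of which 1 is a cachectic mouse at 8 weeks, the difference at 8 weeks was 0.79 (adjusted p = 0.0149). Bst2 was called higher at 8 weeks with median-ratio scaling, by 0.79 (adjusted p = 0.0246), and with quantile normalization, by 0.65 (adjusted p = 0.0471). Ifi35 was called there with median-ratio scaling, by 0.67 (adjusted p = 0.0362). These settings called more of the 13578 genes tested at 8 weeks than the reported fit, which called 2005. There were 4697 without the 4 libraries, 3271 with median-ratio scaling and 3431 with quantile normalization.

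Ifi35, a partner of Nmi in interferon-induced complexes, differed by 0.47 (adjusted p = 0.356) at 6 weeks and 0.52 (adjusted p = 0.182) at 8 weeks, and by 0.63 (adjusted p = 0.0333) at 8 weeks without those 4 libraries. That last setting called 4697 of all genes tested. The Ifit genes, which recognize foreign RNA, and Isg15 with its protease Usp18 are classical targets of type I interferon. At 6 weeks their differences were -0.17 for Ifit1, -0.11 for Ifit2, -0.27 for Ifit3, -0.24 for Isg15 and -0.19 for Usp18. At 8 weeks they were 0.21, -0.053, 0.088, 0.056 and 0.17 in the same order. None of the 5 was called at either week, but the intervals are wide: that of Isg15 at 8 weeks reached from -0.60 to 0.71 and that of Ifit2 from -0.43 to 0.32. Isg15 ranged from 2.11 to 11.4 TPM in cachectic mice at 8 weeks and from 3.57 to 8.03 TPM in control mice. Xaf1, which antagonizes the apoptosis inhibitor Xiap, differed by -0.33 (adjusted p = 0.219) at 8 weeks, and Parp14, an ADP-ribosyltransferase, by -0.16 (adjusted p = 0.689). Over the 10 genes of this group, 1 was called higher and 0 lower at each of 6 and 8 weeks.

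**Figure D3:**
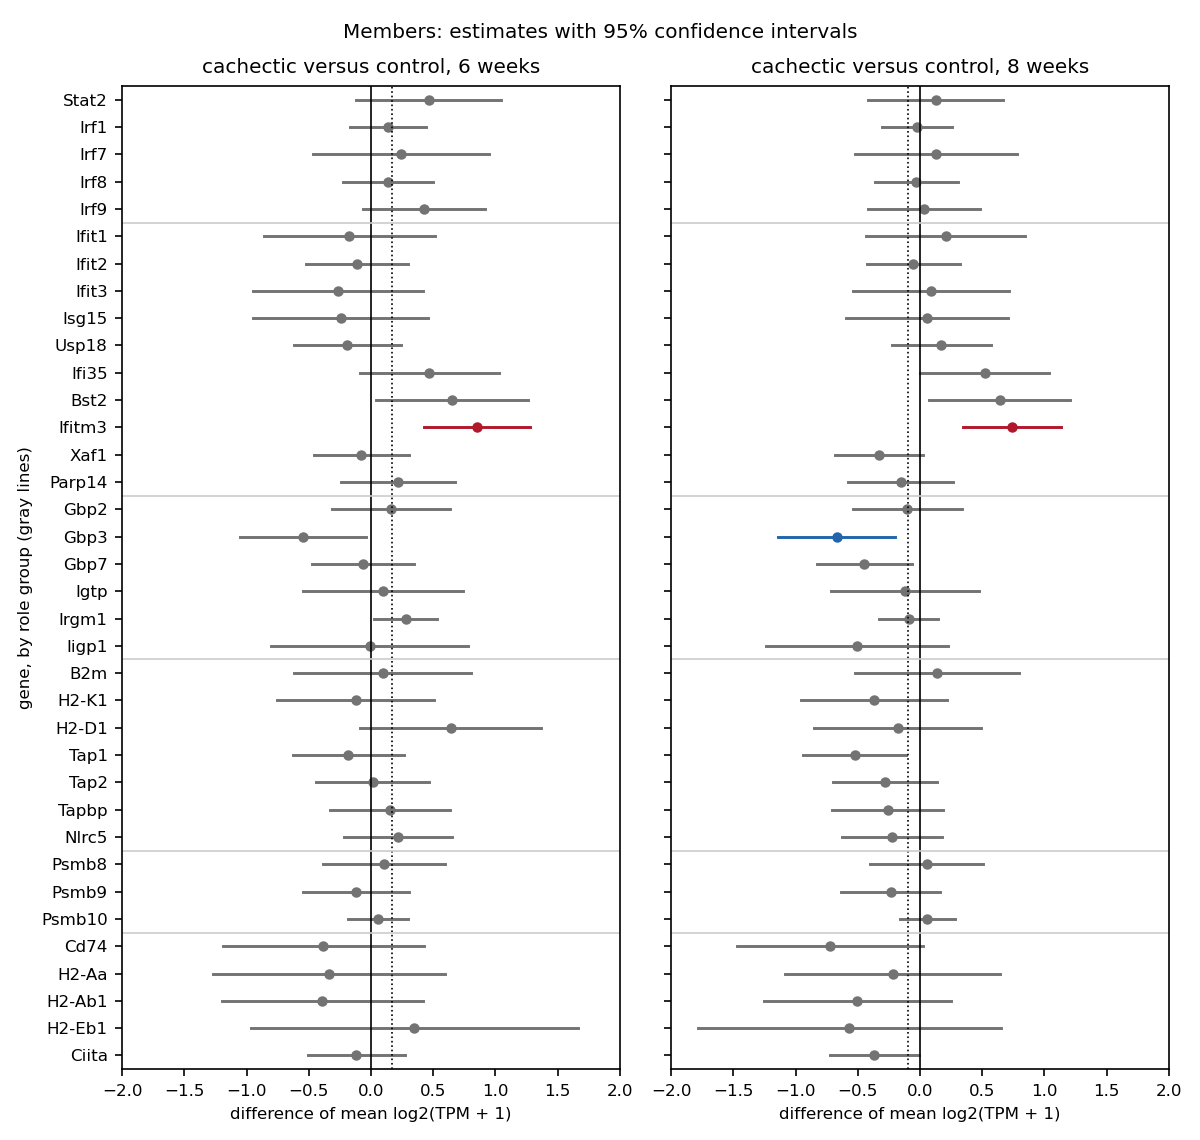
Difference of mean log2(TPM + 1) between cachectic and control mice (x axis) for the 36 genes (y axis, by role) at 6 and 8 weeks, with 95% confidence intervals; red is called higher, blue called lower and the dotted line is the median of all genes tested. Ifitm3 lies at 0.85 and 0.74, Gbp3 at -0.54 and -0.67, and most other intervals include 0.

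Interferon-induced GTPases coat the vacuoles of intracellular pathogens. Gbp3, one of the guanylate-binding proteins, was lower in cachectic than in control mice at 8 weeks. Its levels were 1.73 to 6.86 TPM with a median of 4.35 TPM in cachectic mice and 5.75, 6.90, 7.44, 7.69 and 7.75 TPM in control mice. Non-cachectic mice had 4.70, 5.70, 6.08, 6.30 and 8.57 TPM, which overlap with the cachectic mice, and against them Gbp3 was not called. A single cachectic mouse, replicate 3, lay within the range of the controls and is 1 of the 4 libraries with the fewest genes. The difference from control mice was -0.67 (SE 0.23, 95% confidence interval -1.14 to -0.20, adjusted p = 0.0427), and -0.77 (adjusted p = 0.00622) without those 4 libraries. Leaving them out gave 4697 calls over all genes tested, against 2005 in the reported fit. The call is close to the threshold: leaving out cachectic replicate 1, 2, 4 or 6 or control replicate 1, 2, 3 or 5 ended it, with differences from -0.68 to -0.52, and so did median-ratio scaling, with -0.51 (adjusted p = 0.181).

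At 6 weeks Gbp3 was at 3.94, 4.63, 4.80, 5.34 and 5.68 TPM in cachectic mice and 5.75, 6.66, 6.88, 8.61 and 10.5 TPM in control mice. These did not overlap, and the difference of -0.54 was not called (adjusted p = 0.206). Non-cachectic mice had 6.26, 6.92, 6.95, 9.68 and 9.81 TPM, and all of them were above the cachectic mice as well, with a difference of -0.59 (adjusted p = 0.181). Gbp7, which lies on the same chromosome, was at 3.40 to 6.48 TPM with a median of 4.45 TPM in cachectic mice at 8 weeks and 6.06, 6.77, 7.21, 7.25 and 7.52 TPM in control mice, a difference of -0.45 (adjusted p = 0.108). Another member of the family, Gbp4, which was not among the 36, was lower, with differences of -0.77 (adjusted p = 0.0394) at 6 weeks and -1.09 (adjusted p = 3.44e-04) at 8 weeks, the only 1 of 12 other GTPase genes that was called. Gbp2 differed by 0.16 (adjusted p = 0.753) and -0.10 (adjusted p = 0.821). The Gbp genes are near-identical copies in part, so their values are uncertain where reads fit more than 1 of them.

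At 8 weeks all 6 GTPases had negative estimates, with a median of -0.28 against -0.094 over all genes tested, and Gbp3 was the 1 that was called. Without the mitochondrially encoded genes Gbp7 was called there too, with -0.57 (adjusted p = 0.0197), among 3615 of all genes tested. Irgm1, which regulates the others, was at 9.06, 9.32, 9.65, 10.4 and 11.4 TPM in cachectic and 7.15, 7.85, 7.87, 8.17 and 9.05 TPM in control mice at 6 weeks. The lowest cachectic mouse was barely above the highest control mouse, and the difference of 0.28 was not called (adjusted p = 0.191). At 8 weeks the difference was -0.091 (adjusted p = 0.671). Igtp differed by 0.10 (adjusted p = 0.897) at 6 weeks and -0.12 (adjusted p = 0.852) at 8 weeks, and Iigp1 by -0.0091 (adjusted p = 0.993) and -0.51 (adjusted p = 0.405).

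Among the transcription factors, 0 of 5 were called at 6 and at 8 weeks, with 0 of 5 at an unadjusted p under 0.05 at both. Stat2, which acts with Irf9 in a complex that binds the response element, was at 9.68, 9.97, 10.5, 11.6 and 11.7 TPM in cachectic mice at 6 weeks and 6.34, 7.00, 7.42, 8.24 and 8.50 TPM in control mice. The groups did not overlap, and the difference was 0.46 (SE 0.29, 95% confidence interval -0.12 to 1.05, adjusted p = 0.389). In a fit of only the 2 groups compared, whose spread is not shared with the other conditions, the same difference had an adjusted p of 0.00445. That fit called 4030 of the 13578 genes tested, against 922 in the reported fit, so a small adjusted p is common there. At 8 weeks Stat2 ranged from 2.02 to 13.1 TPM with a median of 9.98 TPM in cachectic mice, the lowest being replicate 3, and had 6.29, 6.82, 7.37, 7.78 and 8.21 TPM in control mice. That difference was 0.13 (adjusted p = 0.819).

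Irf9, the DNA-binding part of the same complex, was at 6.88, 8.38, 8.57, 8.61 and 8.74 TPM in cachectic mice and 5.29, 5.35, 5.75, 6.10 and 6.96 TPM in control mice at 6 weeks. Only the lowest cachectic mouse fell within the range of the controls, and the difference of 0.42 was not called (adjusted p = 0.335). The adjusted p was 0.00643 in the fit of the 2 groups alone, which called 4030 of all genes tested. Irf7, which amplifies the production of type I interferon, ranged from 1.26 to 8.44 TPM in cachectic mice at 8 weeks and from 2.95 to 5.12 TPM in control mice, a difference of 0.13 (adjusted p = 0.852). Irf1, an activator that responds to interferon gamma, and Irf8, a factor of macrophages, dendritic cells and B cells, differed by 0.14 and 0.14 at 6 weeks and by -0.025 and -0.029 at 8 weeks.

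In the reported fit, MHC class I presentation had 0 of 7 genes called at 6 and at 8 weeks, with 0 and 1 of 7 at an unadjusted p under 0.05. The 1 was Tap1, a chain of the peptide pump of the endoplasmic reticulum. At 8 weeks its level ranged from 1.41 to 3.16 TPM with a median of 2.51 TPM in cachectic mice and was 3.33, 3.498, 3.71, 3.72 and 4.78 TPM in control mice. No cachectic mouse reached the lowest control mouse, while non-cachectic mice, with 2.23, 2.82, 2.98, 2.99 and 4.13 TPM, overlapped with both. The difference from control mice was -0.53 (SE 0.21, 95% confidence interval -0.94 to -0.11, adjusted p = 0.078). The fit without the mitochondrially encoded genes called it, with -0.68 (adjusted p = 0.0221), among 3615 of all genes tested. Dunn's test called it as well, with an adjusted p of 0.042, among 1121 of all genes tested. The control mice themselves had 1.56, 1.95, 2.96, 3.06 and 3.18 TPM at 4 weeks, below all controls at 8 weeks, a difference over time of 0.46 (unadjusted p = 0.0435, adjusted p = 1).

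Tap2, the other chain of the pump, was at 3.44 to 13.5 TPM in cachectic mice at 8 weeks and 8.99 to 13.6 TPM in control mice, a difference of -0.28 (adjusted p = 0.417). H2-D1, a class I heavy chain, was at 98.8, 104, 140.1, 153 and 159 TPM in cachectic mice and 35.1, 81.3, 98.4, 101 and 129 TPM in control mice at 6 weeks. One control mouse, replicate 4, was far below the other mice, and the groups overlapped, with a difference of 0.64 (SE 0.36, 95% confidence interval -0.086 to 1.37, adjusted p = 0.326). This control mouse also had only 1.78 TPM of H2-Eb1, as did non-cachectic replicate 5 at 4 weeks. The latter had 38.7 TPM of H2-D1, against 91.6 to 145 TPM in the rest of its group. H2-K1, the other heavy chain, differed by -0.12 (adjusted p = 0.863) at 6 weeks and -0.37 (adjusted p = 0.454) at 8 weeks, and B2m by 0.10 (adjusted p = 0.908) and 0.14 (adjusted p = 0.84). For B2m at 8 weeks, cachectic replicate 3, 1 of the 4 libraries with the fewest genes, had 1235 TPM. The other cachectic mice of that week had 258 to 533 TPM. Tapbp, or tapasin, which bridges the pump and the heavy chain, differed by -0.26 (adjusted p = 0.492) at 8 weeks and Nlrc5 by -0.23 (adjusted p = 0.514). The H2 genes are a family of similar sequences, and values of single members are uncertain for that reason.

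The immunoproteasome subunits Psmb8, Psmb9 and Psmb10 replace the constitutive subunits Psmb5, Psmb6 and Psmb7 and shift the peptides that are cut. None of the 3 was called at 6 or 8 weeks in limma, with 0 at an unadjusted p under 0.05 at both. Psmb9 ranged from 2.14 to 7.86 TPM with a median of 2.85 TPM in cachectic mice at 8 weeks and had 3.26, 3.27, 3.79, 4.17 and 5.25 TPM in control mice. The highest of all was cachectic replicate 3, and the other 6 cachectic mice had at most 3.203 TPM, below every control mouse. With all mice the difference was -0.24 (adjusted p = 0.481), and without the 4 libraries with the fewest genes, which include that mouse, it was -0.42 (adjusted p = 0.0287). Without these libraries 4697 of all genes tested were called, against 2005 in the reported fit. Psmb9 and Tap1 lie next to each other on chromosome 17, and their annotated spans share 212 bases, so reads there could count for either gene.

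Psmb10 was among the steadiest genes of the set, with 19.8 to 32.9 TPM in cachectic and 20.7 to 27.3 TPM in control mice at 8 weeks and a difference of 0.060 (SE 0.11, 95% confidence interval -0.16 to 0.28, adjusted p = 0.785). Psmb8 differed by 0.11 (adjusted p = 0.847) at 6 weeks and 0.054 (adjusted p = 0.914) at 8 weeks. The share of each subunit relative to its constitutive counterpart, in TPM, was 9.66% ± 3.03 (SD, n = 7) for Psmb8 over Psmb5 in cachectic mice at 8 weeks and 8.91% ± 1.79 (SD, n = 5) in control mice. For Psmb9 over Psmb6 it was 3.03% ± 1.46 and 4.07% ± 1.06, and for Psmb10 over Psmb7 29.4% ± 4.84 and 30.1% ± 3.89, so the groups overlapped in all 3. Cachectic replicate 3, 1 of the 4 libraries with the fewest genes, had the highest value of its group for the first 2 ratios. Without it, a setting added after the values were seen, the cachectic values were 8.54% ± 0.711 (SD, n = 6) for Psmb8, which turns the direction against the control mice, 2.49% ± 0.372 for Psmb9 and 30.5% ± 4.24 for Psmb10.

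MHC class II presentation had 0 of 5 genes called at 6 and at 8 weeks, with 0 and 1 of 5 at an unadjusted p under 0.05. Cd74, the invariant chain that guards the groove until a peptide is loaded, ranged from 44.0 to 149 TPM with a median of 82.9 TPM in cachectic mice at 8 weeks. Control mice had 126, 127, 137, 145 and 176 TPM and non-cachectic mice 65.9, 88.3, 147, 189 and 196 TPM. Of the 7 cachectic mice, 5 lay below every control mouse and 2 lay among them. The difference of -0.72 from control mice had an interval of -1.47 to 0.025 and was not called (adjusted p = 0.203).

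Ciita, the transactivator of all class II genes, was at 0.213 to 1.19 TPM in cachectic mice at 8 weeks and 0.731, 0.765, 0.838, 1.11 and 1.17 TPM in control mice, a difference of -0.37 (adjusted p = 0.175); levels this low rest on few reads. H2-Ab1, the beta chain of I-A, was at 14.4, 20.3, 20.9, 26.7 and 29.3 TPM in cachectic and 20.3, 21.8, 30.1, 30.5 and 48.4 TPM in control mice at 6 weeks, which overlap. Its differences were -0.39 (adjusted p = 0.637) at 6 weeks and -0.50 (adjusted p = 0.419) at 8 weeks, and those of H2-Aa, the alpha chain, were -0.34 (adjusted p = 0.731) and -0.22 (adjusted p = 0.801). H2-Eb1, the beta chain of I-E, had intervals of -0.97 to 1.66 and -1.78 to 0.65. It was the most variable of the 36 genes, and 2 mice had 1.78 TPM, non-cachectic replicate 5 at 4 weeks and control replicate 4 at 6 weeks, while all others had 5.90 TPM or more. Cachectic replicate 3 at 8 weeks, 1 of the 4 libraries with the fewest genes, had 187 TPM of H2-Aa, 81.4 TPM of H2-Ab1 and 151 TPM of H2-Eb1. The other cachectic mice of that week reached at most 78.3, 41.1 and 69.7 TPM, so these 3 differences at 8 weeks depend in part on that library.

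At 2 weeks 15 of the 36 genes were lower in cachectic than in control mice. They were Stat2 and Irf1 of 5 transcription factors, Ifit2, Bst2 and Parp14 of 10 antiviral genes, Gbp3, Gbp7, Igtp and Iigp1 of 6 GTPases, and 6 of 7 class I genes, all but B2m. None of the immunoproteasome and class II genes was called. Among the called genes, the largest estimates were those of Iigp1, with -1.51 (adjusted p = 0.0101), H2-D1, with -1.22 (adjusted p = 0.0165), Igtp, with -0.97 (adjusted p = 0.0249), and Bst2, with -0.96 (adjusted p = 0.0219). The smallest adjusted p was that of Gbp7, with a difference of -0.85 (SE 0.21, 95% confidence interval -1.26 to -0.44, adjusted p = 0.00723).

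The values of single mice show what the 15 calls rest on. Stat2 was at 1.16, 1.45, 4.38, 6.66 and 12.03 TPM in cachectic mice and 4.37, 6.87, 9.63, 10.9 and 12.6 TPM in control mice. The lowest cachectic mice were replicates 4 and 3, the libraries with few genes, and the highest controls were replicates 2, 4 and 5, the mice with high liver genes. Gbp7 was at 1.68, 1.92, 3.65, 4.04 and 7.46 TPM in cachectic and 4.71, 5.65, 7.58, 8.43 and 8.57 TPM in control mice, with the same mice at the ends. Tapbp was at 8.16, 11.8, 23.9, 33.4 and 40.4 TPM and 24.9, 34.8, 35.9, 40.7 and 40.7 TPM, and again replicates 3 and 4 were far below the other cachectic mice, of which replicate 5 was just below the lowest control and the remaining 2 were among the controls. H2-D1, at 19.8, 34.1, 45.7, 48.5 and 81.2 TPM in cachectic mice and 44.2, 72.7, 101, 145 and 189.7 TPM in control mice, was less divided between these mice.

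The remaining called genes overlapped between the groups as well. In cachectic and control mice, Irf1 had 4.43 to 11.8 and 7.61 to 13.1 TPM, Ifit2 0.564 to 4.08 and 3.00 to 6.66 TPM, Parp14 1.32 to 4.78 and 3.98 to 7.09 TPM, and Bst2 14.97 to 60.0 and 31.3 to 57.4 TPM. Gbp3 had 2.27 to 8.32 and 3.97 to 9.21 TPM, Igtp 1.97 to 12.02 and 4.24 to 17.4 TPM, and Iigp1 2.42 to 11.8 and 5.78 to 39.1 TPM. H2-K1 had 13.0 to 117 and 39.2 to 85.9 TPM, Tap1 0.374 to 3.99 and 2.06 to 4.02 TPM, Tap2 2.94 to 13.4 and 7.69 to 12.2 TPM, and Nlrc5 0.126 to 0.947 and 0.561 to 3.47 TPM. In none of the 15 genes did the groups separate.

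**Figure D4:**
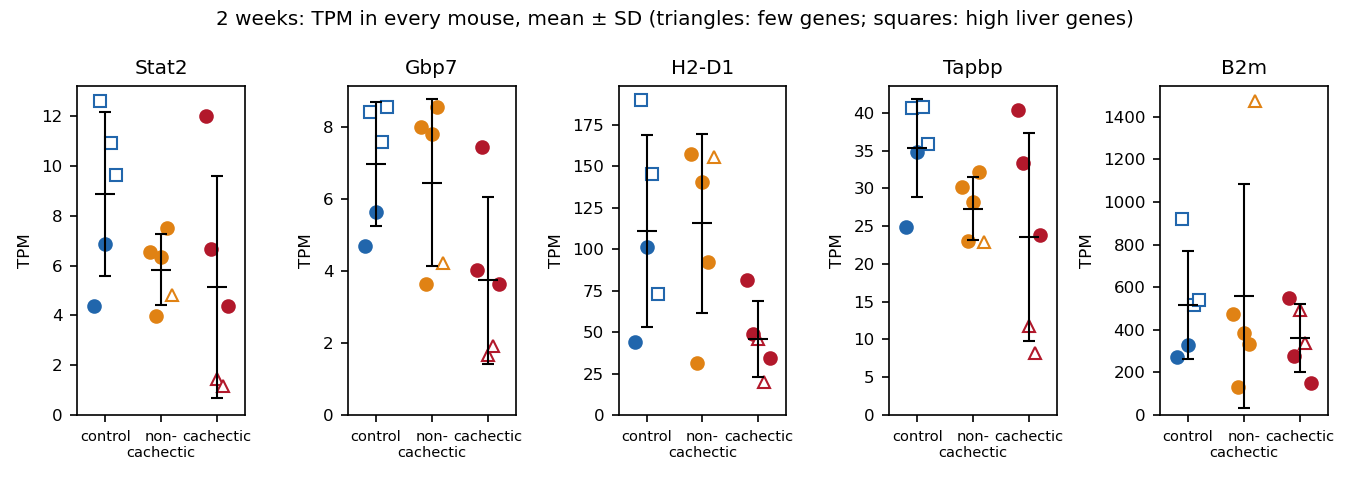
TPM of Stat2, Gbp7, H2-D1, Tapbp and B2m at 2 weeks in every mouse of the 3 groups, with the mean and SD (n = 5); triangles mark libraries with few genes and squares mice with high liver genes. In Stat2, Gbp7 and Tapbp the lowest cachectic mice are the 2 triangles, and the 3 squares are among the highest controls; B2m, which was not called, reaches 1472 TPM in a non-cachectic mouse with few genes.

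Without the 4 libraries with the fewest genes, 0 of the 36 genes were called at 2 weeks, and 0 were called without the 4 mice with the highest liver genes. Leaving out cachectic replicate 3 or control replicate 2 alone also gave 0, leaving out cachectic replicate 4 gave 2, leaving out control replicate 4 or 5 gave 7 or 6, and leaving out cachectic replicate 1 gave 26. The part of RNA quality or of liver tissue in the difference at 2 weeks was not tested. Without both sets of libraries, which leaves 3 cachectic and 2 control mice, 5 of the estimates turned positive: Stat2 with 0.32, Tap2 with 0.26, Tapbp with 0.11, Irf1 with 0.094 and H2-K1 with 0.056, none of them called.

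The 36 genes are only a part of the pathway, and the other genes were counted over 10 lists of 164 genes, of which 130 were tested. In cachectic versus control mice 10 of the 130 (7.69%) were higher and 1 (0.769%) was lower at 6 weeks, against 5.62% and 1.17% of all genes tested. At 8 weeks 12 (9.23%) were higher and 4 (3.08%) lower, against 6.65% and 8.12%. At 2 weeks 1 (0.769%) was higher and 52 (40%) were lower, against 1.41% and 27.8%, and at 4 weeks 1 was higher, Socs3, against 0.0147%. Among the 21 interferon genes themselves, 0 passed the filter and 13, with Ifnb1 among them, were at 0 in all 62 mice. The highest value of any was 0.185 TPM, for Ifng. The chemokines Cxcl9, Cxcl10 and Cxcl11, which recruit T cells upon interferon, had 0 of 3 called at either week, and other class I genes and loading factors had 0 of 18. The constitutive catalytic subunits and proteasome activator had 0 of 7 called at both weeks.

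Of 8 receptor and kinase genes tested, Ifnar2, a chain of the type I interferon receptor, was higher by 0.49 (adjusted p = 0.0225) at 6 weeks and 0.38 (adjusted p = 0.0409) at 8 weeks, and Ifngr2, a chain of the interferon gamma receptor, was lower at 8 weeks, with a difference of -0.60 (adjusted p = 0.01). The list of signal transducers and inhibitors had 3 of 10 genes higher at 6 weeks and 1 at 8 weeks. Its Socs3, an inhibitor of Jak kinases that is induced by Stat3, was at 27.7, 27.9, 32.6, 59.1 and 61.7 TPM in cachectic mice and 3.67, 3.75, 4.24, 5.23 and 6.41 TPM in control mice at 6 weeks. It was higher by 2.16 (adjusted p = 0.00646) at 4 weeks, 2.85 (adjusted p = 1.06e-06) at 6 weeks and 2.17 (adjusted p = 1.03e-05) at 8 weeks. Stat3 itself was higher by 1.31 (adjusted p = 0.0174) and the phosphatase Ptpn2 by 0.41 (adjusted p = 0.0264) at 6 weeks. At 8 weeks Stat3 was not called. Cachectic replicate 3, 1 of the 4 libraries with the fewest genes, had 3.29 TPM there. The other cachectic mice had 36.8 to 61.7 TPM, above the control mice with 17.7 to 23.5 TPM. Tmem173, or Sting, the adaptor for cytosolic DNA, was higher by 1.24 (adjusted p = 4.34e-06) and 0.96 (adjusted p = 3.19e-05) at 6 and 8 weeks, 1 of 12 sensors and adaptors that was called.

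In the list of other interferon-stimulated genes, 4 of 45 were higher at 6 weeks, and 6 were higher and 2 lower at 8 weeks. Besides Ifitm1, they included Ifi205, higher by 2.34 (adjusted p = 1.76e-06) and 1.95 (adjusted p = 4.85e-06), and Ifi204, higher by 1.34 (adjusted p = 3.97e-04) and 1.00 (adjusted p = 0.00201), both from a family of DNA-binding proteins with similar sequences. Of 15 other class II genes, 1 was higher at 6 weeks and 3 at 8 weeks. Lgmn, a lysosomal protease, was higher by 0.75 (adjusted p = 0.00991) at 6 weeks, and Ifi30, a lysosomal reductase, and March1, which removes class II from the surface, were higher by 0.71 (adjusted p = 0.0315) and 0.42 (adjusted p = 0.0348) at 8 weeks. The class II chains themselves, described above, were not called.

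Markers of immune cells differed in part between the same groups. Of 12 macrophage markers, 4 were higher at 6 weeks and 6 at 8 weeks, with 0 lower. Their summed level at 8 weeks was 315 to 1216 TPM in cachectic mice and 318 to 621 TPM in control mice, which overlap, and no marker of the list was at 0 in all mice. Cd163 and Mrc1, scavenger receptors of resident macrophages, were higher by 1.49 (adjusted p = 7.76e-05) and 0.91 (adjusted p = 6.49e-04) at 8 weeks. At the same week 2 of 4 neutrophil markers tested were higher, 0 of 8 B cell markers and 0 of 3 natural killer cell markers were called, and Ptprc, the marker of all leukocytes, differed by 0.14 (adjusted p = 0.769). Of 4 dendritic cell markers tested, Clec10a was higher at both weeks, by 1.49 (adjusted p = 3.15e-05) at 6 weeks and 1.61 (adjusted p = 8.24e-07) at 8 weeks. The summed level of that list at 8 weeks was 9.58 to 23.9 TPM in cachectic and 8.26 to 11.6 TPM in control mice. This sum covers all 10 genes of the list and includes Clec10a, which had the highest single value of them over all mice, 13.5 TPM. Of 8 markers of fibro-adipogenic progenitors, 2 were higher and 0 lower at 6 weeks, and 2 were higher and 3 lower at 8 weeks. Of 8 endothelial markers, 0 were called at 6 weeks and 1 was higher and 1 lower at 8 weeks, and 0 of 6 adipocyte and 0 of 10 liver markers were called at either week. The summed B cell level ranged from 3.06 to 1269 TPM over the 62 mice. The part of these cells in the differences of Ifitm3 and Gbp3 was not tested.

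The non-cachectic tumor gave no called gene among the 36. Against control mice 0 of 36 were called at 2 weeks, where 4.43% of all genes were called, 0.0147% higher and 4.42% lower, and 0 of 36 at 4, 6 and 8 weeks, where 0% were called. At an unadjusted p under 0.05 there were 2 at 2 weeks and 0 at the later weeks. Over all genes tested there were 1688 at 2 weeks and 68, 100 and 55 at 4, 6 and 8 weeks. Averaged over 4 to 8 weeks, with 15 mice in each group, 0 of 36 were called and 0 had an unadjusted p under 0.05, beside 46 of all genes tested. For Ifitm3 this average difference was 0.043 (SE 0.12, 95% confidence interval -0.20 to 0.29, adjusted p = 1), and for Gbp3 it was 0.065 (SE 0.15, 95% confidence interval -0.23 to 0.36, adjusted p = 1). Both intervals exclude differences of the size seen in cachectic mice at 8 weeks.

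In the comparison of cachectic with non-cachectic mice, which share their cachectic samples with the comparison to control mice, 0 of 36 genes were called at 2, 4 and 6 weeks, where 0%, 0.0295% and 5.85% of all genes were called, at 6 weeks 4.28% higher and 1.57% lower. At an unadjusted p under 0.05 there were 15, 3 and 4, beside 1709, 697 and 2415 of all 13578 genes tested. Of the 3 comparisons of the cachectic difference between weeks, each called 0 of 36 genes and 0 genes in all, with 0, 1 and 0 of the 36 at an unadjusted p under 0.05 for 6 against 4, 8 against 6 and 8 against 4 weeks. Over all genes tested, 506, 580 and 1022 had such a p in the same order. In control mice at 8 versus 4 weeks, 35 of the 36 estimates were positive, with a median of 0.25 against 0.045 over all genes. However, 0 were called and 1 of the 36 had an unadjusted p under 0.05, beside 120 of all genes tested. That 1 was Tap1.

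The genes of a group varied together among mice of the same condition, but over 58 mice the immunoproteasome genes did so no more than with the other genes. Over the 58 mice without the 4 libraries with the fewest genes, with each condition's mean removed, the median Pearson r between 2 class II genes was 0.87, and that between class II genes and the other genes was 0.37. For class I genes these values were 0.69 and 0.57, for GTPases 0.67 and 0.55, for transcription factors 0.66 and 0.62, for antiviral effectors 0.64 and 0.51 and for the immunoproteasome 0.52 and 0.55. Over all 62 mice the values within and outside a group were 0.68 and 0.35 for class II genes, 0.59 and 0.49 for class I genes, 0.58 and 0.48 for GTPases, 0.69 and 0.50 for transcription factors, 0.55 and 0.45 for antiviral effectors and 0.67 and 0.42 for the immunoproteasome. The closest pairs over the 58 mice were Cd74 with H2-Ab1, with r = 0.97, H2-Aa with H2-Ab1, with r = 0.97, Cd74 with H2-Aa, with r = 0.96, and, outside class II, Irf7 with Ifit1, with r = 0.92. Irf8 followed Ciita with r = 0.85. These are descriptions without a test, over values that share libraries and a fixed sum, and no baseline from other pairs of genes is given.

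**Figure D5:**
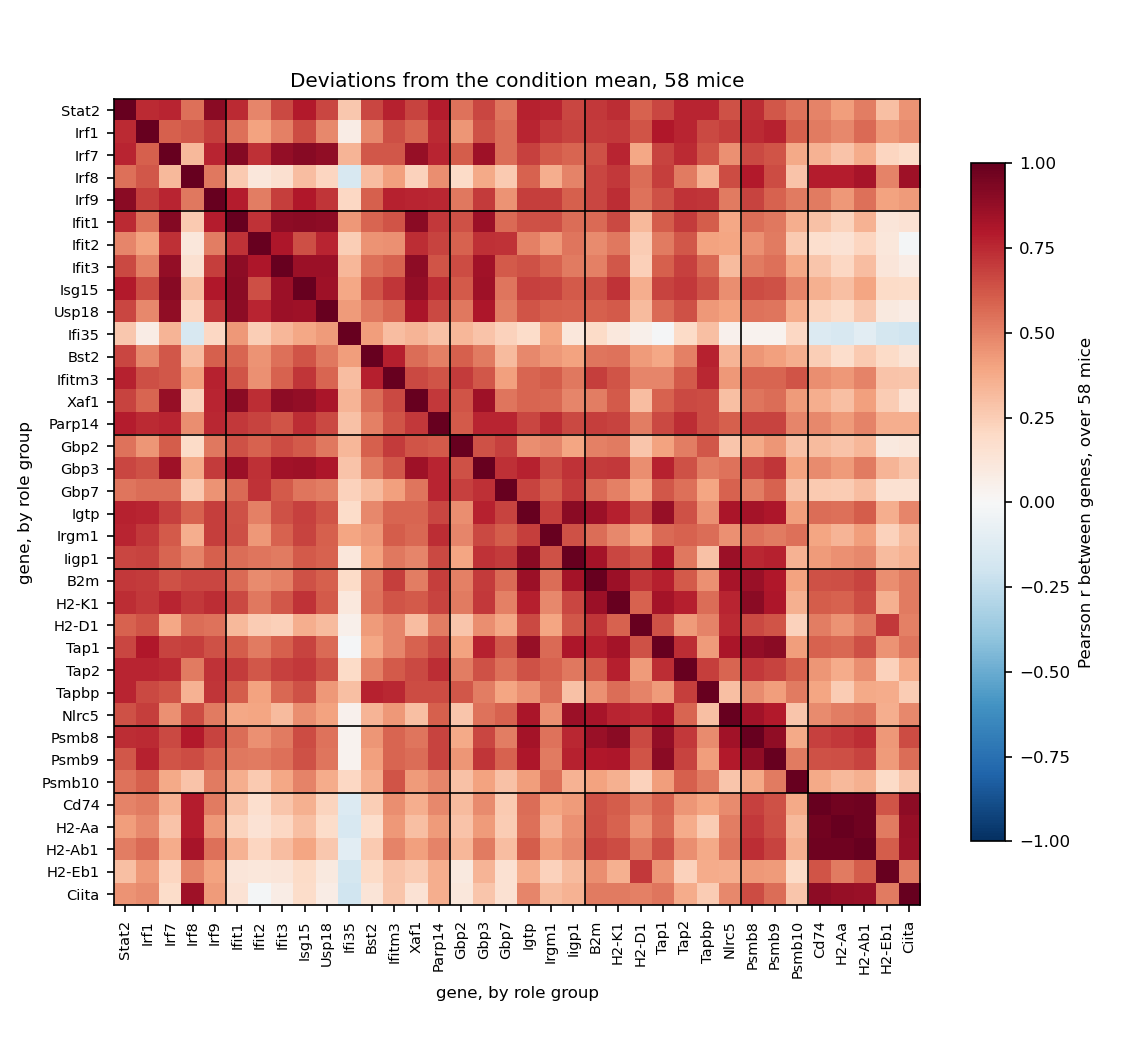
Pearson r between each pair of the 36 genes over 58 mice, computed on log2(TPM + 1) after removing the mean of each condition; both axes list the genes by role, and black lines part the groups. The class II genes Cd74, H2-Aa, H2-Ab1 and Ciita form a dark block in the lower right, Irf8 varies with them, and Ifi35 is pale throughout.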

How the data were processed

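The authors mapped the reads of the 62 diaphragm libraries with CLC Genomics Workbench and deposited one table of TPM values, with the genome build given as mm10 in the submitters' processing notes. The labels and the methods name different library kits. Annotation release, use of strand and treatment of reads that map to several genes are not given in the sources used here. TPM keeps no read depth, so precision rests on the spread between mice. Samples were grouped by their labels into 12 conditions. Genes that reached 1 TPM in 5 or more mice were tested on log2(TPM + 1), with a pseudocount of 1, in limma 3.58.1 (R 4.3.3) with 12 condition means, a mean-variance trend, 50 residual degrees of freedom and Benjamini-Hochberg adjustment within each of 17 comparisons. The scripts were tested on simulated data. Tables and figures were made with Python 3.11.15, pandas 2.3.3, scipy 1.17.1 and matplotlib 3.10.9. Gene positions are from GENCODE on GRCm38. The 36 genes and the lists were chosen with earlier results of these data known. Values by mouse or by range were given, in each role group, for the 2 genes with the smallest adjusted p in cachectic versus control mice at 8 weeks, for the 1 with the smallest at 6 weeks and for genes called in only 1 comparison or in opposite directions. Of the other pathway lists, up to 3 called genes with the smallest adjusted p at 6 or 8 weeks were named, plus Ifng and Ifnb1; another gene that the rule names is not reported here. Alternatives covered pseudocount, filter, scaling, weights, Dunn's test, the mice included and leaving out each mouse. Gene-by-gene weights and leaving out both sets of libraries that stand apart together were chosen after seeing the data.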

Additional observations from a re-analysis of the deposited data

Results flagged for a closer look

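In 432 tests, 1 for each of the 36 genes in each of the 12 conditions, 37 values lay farther from the rest of their group than Dixon's test allows at the 95% level, in 17 mice. Chance flags about 1 in 20 groups. Of these values, 8 came from the 4 libraries with the fewest genes, and 7 of those were in cachectic replicate 3 at 8 weeks.

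Non-cachectic replicate 2 at 2 weeks had 6.12 TPM for Irf1, 2.37 TPM for Gbp3, 2.14 TPM for Iigp1, 0.957 TPM for Tap1 and 0.189 TPM for Nlrc5. Non-cachectic replicate 5 at 8 weeks had 7.16 TPM for Irf7. Control replicate 5 at 4 weeks had 1.34 TPM for Irf7, 1.83 TPM for Isg15, 3.31 TPM for Gbp3, 4.14 TPM for Gbp7 and 7.29 TPM for Tap2. Cachectic replicate 5 at 6 weeks had 6.88 TPM for Irf9. Cachectic replicate 3 at 8 weeks had 2.02 TPM for Irf9, 1.32 TPM for Parp14, 17.6 TPM for Iigp1, 3.44 TPM for Tap2, 12.4 TPM for Tapbp, 16.9 TPM for Psmb8 and 7.86 TPM for Psmb9. Non-cachectic replicate 5 at 6 weeks had 4.81 TPM for Irf9. Control replicate 1 at 2 weeks had 3.31 TPM for Irf9. Cachectic replicate 4 at 2 weeks had 4.59 TPM for Ifi35. Cachectic replicate 4 at 4 weeks had 7.58 TPM for Ifi35. Control replicate 1 at 8 weeks had 133 TPM for Ifitm3, 8.99 TPM for Tap2 and 30.4 TPM for Tapbp. Non-cachectic replicate 5 at 4 weeks had 28.5 TPM for Gbp2 and 1.78 TPM for H2-Eb1. Non-cachectic replicate 4 at 8 weeks had 4.50 TPM for Iigp1. Control replicate 1 at 6 weeks had 18.6 TPM for Iigp1, 1.95 TPM for Nlrc5 and 5.00 TPM for Psmb9. Cachectic replicate 3 at 4 weeks had 29.1 TPM for H2-K1 and 4.15 TPM for Psmb8. Control replicate 5 at 6 weeks had 9.38 TPM for Tap2. Non-cachectic replicate 1 at 4 weeks had 1.92 TPM for Nlrc5. Control replicate 4 at 6 weeks had 1.78 TPM for H2-Eb1.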

How the results depend on the processing

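The reported fit was repeated under 75 other settings, 62 of which leave out 1 mouse. In cachectic versus control mice the difference of Ifitm3 stayed positive under all of them, between 0.66 and 0.95 at 6 weeks and between 0.61 and 0.90 at 8 weeks, and that of Gbp3 at 8 weeks stayed negative, between -0.81 and -0.51. Counts out of the 36 genes follow. Over all 13578 genes tested the counts moved with the settings too, as given for several of them below. A larger count here is therefore not by itself a result about the 36 genes. In cachectic versus control mice at 8 weeks, 2 were called; there were 3 with median-ratio scaling, with Ifi35 and Bst2 called and Gbp3 not, 2 with quantile normalization, with Bst2 in place of Gbp3, 1 with no filter on low values, 4 without mitochondrially encoded genes, 10 with array quality weights, 9 with weights estimated gene by gene, 1 with Dunn's test, which was Tap1, 1 in a fit of only the groups compared, 5 without the 4 libraries with the fewest genes and 6 without both sets of 4 libraries. At 6 weeks, where 1 was called, there were 0 with median-ratio scaling, 7 and 6 with the 2 kinds of weights, 0 with Dunn's test, 5 with only the groups compared, 2 without the libraries with the fewest genes and 5 without both sets. At 4 weeks, where 0 were called, each kind of weights gave 1, and the matching counts over all genes tested are not given. At 2 weeks, where 15 were called, there were 4 with median-ratio scaling, 1 with quantile normalization, and 0 with array quality weights, Dunn's test, only the groups compared, without the libraries with the fewest genes, without the mice with the highest liver genes and without both. Weights estimated gene by gene gave 22 there. The default array weights stopped before they converged, and the gene-by-gene estimate was added after their counts were seen, as was the setting without both sets of 4 libraries.

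Against non-cachectic mice at 8 weeks, where 1 was called, there were 2 with median-ratio scaling, 2 without mitochondrially encoded genes, 8 and 6 with the 2 kinds of weights, 0 with Dunn's test, 5 without the libraries with the fewest genes and 5 without both sets. At 6 weeks, where 0 were called, there were 5 and 4 with weights, 4 with only the groups compared, 1 without the libraries with the fewest genes, 1 without the mice with the highest liver genes and 2 without both. At 4 weeks weights gave 3 and 2 instead of 0. In non-cachectic versus control mice at 2 weeks weights gave 6 and 5 instead of 0. They gave 3 and 3 for the cachectic difference between 6 and 4 weeks, and 1 and 1 in control mice at 8 versus 4 weeks. Counts over all genes tested are not given for the weighted fits at 4 weeks, between 6 and 4 weeks and in control mice. Calls in those fits are therefore a description only. Differences that turned from negative to positive in cachectic versus control mice at 2 weeks were Irf1 with 0.063 under quantile normalization, Tap2 with 0.0053 without the libraries with the fewest genes, and, without both sets, Stat2 with 0.32, Irf1 with 0.094, H2-K1 with 0.056, Tap2 with 0.26 and Tapbp with 0.11. The cause was not tested.

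Leaving out 1 mouse gave 0 to 26 called genes of the 36 in cachectic versus control mice at 2 weeks, 0 at 4 weeks, 1 at 6 weeks and 1 to 3 at 8 weeks. Against non-cachectic mice it gave 0 to 2, 0, 0 to 1 and 1 to 2 at the same weeks, and in non-cachectic versus control mice 0 to 1 at 2 weeks. With the replicate number as a block, 1 gene was called in cachectic versus control mice at 8 weeks and the counts of the other comparisons did not move; the numbers do not pair the mice, since in no comparison were all 5 correlations between same-numbered mice over 0.1.

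Over all genes tested, the 3973 calls of cachectic versus control mice at 2 weeks became 2386 with median-ratio scaling, 2176 with quantile normalization, 153 and 1328 with weights, 0 with Dunn's test, with only the groups compared or without either set of 4 libraries, and between 21 and 7936 when 1 mouse was left out. The 922 calls at 6 weeks became 4030 with only the groups compared, 4233 without the libraries with the fewest genes, 6565 and 6385 with weights and 0 with Dunn's test. The 2005 calls at 8 weeks became 3271 with median-ratio scaling, 3431 with quantile normalization, 552 with only the groups compared, 1121 with Dunn's test, 3615 without mitochondrially encoded genes, 4697 without the libraries with the fewest genes and 4921 and 4668 with weights. Against non-cachectic mice, the 1757 calls at 8 weeks became 607 with Dunn's test, 364 with only the groups compared and at most 5552, with weights, and the 794 calls at 6 weeks became 0 with Dunn's test and at most 5519, with weights. The 602 calls of non-cachectic versus control mice at 2 weeks became 930 with no filter and 1767 and 1338 with weights.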

Other observations

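The level of H2-Ab1, a class II chain that varied among mice of the same condition, was compared with the levels of 6 marker lists in the same 62 mice, each as deviations from the mean of the condition on the log2(TPM + 1) scale, with 100000 permutations within conditions. These relations were chosen after the values were seen. H2-Ab1 went with Ptprc, the leukocyte marker, with Pearson's r = 0.78 and Spearman's rho = 0.79, with B cell markers (r = 0.71, rho = 0.67) and with natural killer cell markers (r = 0.70, rho = 0.64). For these 3 lists each permutation p was 1e-05, the smallest that they can give, and 2e-05 after adjustment over the 6 lists. For macrophage markers r was 0.56 (permutation p = 0.00044, adjusted 0.00066) and rho 0.47 (permutation p = 0.00108, adjusted 0.0013). For dendritic cell markers r was 0.45 (permutation p = 0.0029, adjusted 0.00348) and rho 0.48 (permutation p = 0.00083, adjusted 0.00124). Neutrophil markers gave r = 0.33 (permutation p = 0.128) and rho = 0.073 (permutation p = 0.619). Without the 2 mice farthest from the median, r was 0.77 for Ptprc, 0.70 for B cell, 0.58 for natural killer cell, 0.51 for macrophage, 0.59 for dendritic cell and 0.10 for neutrophil markers. Over the 58 mice without the 4 libraries with the fewest genes, r was 0.82, 0.68, 0.57, 0.57, 0.62 and 0.24 in the same order. The order of the lists thus depends on the mice included. The lists held 1, 8, 3, 12, 4 and 4 tested genes in that order.

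H2-Ea-ps, a transcript of the I-E alpha locus that was chosen after its values were seen, was at 0 in 4 mice, above 0 and below 5 TPM in 5 mice and between 9.95 and 262 TPM in the other 53 mice. The 2 mice with 1.78 TPM of H2-Eb1 had 1.00 and 1.61 TPM of H2-Ea-ps. They also had 0.188 and 0.169 TPM of H2-Q6 and 0.161 and 0.130 TPM of H2-Q7, other class I genes.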
